A study of Mus musculus with 2 samples.

Results

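The 384 LSD1 peaks described here are those that start below 8 Mb on mouse chromosomes 1 to 19, with chromosome 15 left out, in an authors' list of 11797 peaks. They were chosen by chromosome and start position, with earlier results of these data known. In the mouse build mm9, which the list uses, a chromosome is numbered from its centromere, and usable sequence begins near 3 Mb. These peaks therefore lie in the 5 Mb of assembled sequence next to the centromere of 18 autosomes, called the centromeric ends below. The other 9378 peaks of the same 18 chromosomes, called the rest, served as the comparison.

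The list came from chromatin immunoprecipitation and sequencing (ChIP-seq) of 1 LSD1 library against 1 input library, which is fragmented chromatin without antibody. Both were from C2C12 cells, a mouse myoblast line, held for 48 h in 2% horse serum, the condition in which these cells begin to form myotubes. They had been expanded in 10% FBS, with 25 mM glucose throughout. The ChIP used a polyclonal LSD1 antibody on chromatin fixed with both formaldehyde and disuccinimidyl glutarate, a longer linker that also holds proteins to each other. LSD1 at a peak may thus touch DNA or be held there by another protein. The labels name no clone, passage or culture of the line, and no untreated myoblasts were compared. The peak list holds no read numbers. The depth of both libraries is therefore unknown, no marker of the cell type could be checked, and no value here has a replicate error. Intervals and binomial p-values cover counting error over the peaks of this list, treated as independent although many lie in groups. Sign-test p-values count each chromosome once and cover the split over chromosomes.

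LSD1 (KDM1A) is a flavin-dependent demethylase that takes methyl groups from lysines of histone H3, and it works in repressor complexes with CoREST and histone deacetylases. Mouse autosomes have the centromere at 1 end. It is made of satellite repeats packed in heterochromatin with methylated histone H3 and HP1 proteins, and most of these repeats are absent from the assembly. The ends examined here are the first assembled sequence beyond them.

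Taken as a whole, the centromeric ends did not differ in LSD1 peak density from the rest of their chromosomes beyond counting error. They held 4.27 peaks per Mb, 384 over 90 Mb, against 4.23 per Mb in the rest. The ratio was 1.01 (95% exact interval 0.908 to 1.12, two-sided exact binomial test, p = 0.875). Peaks covered 0.245% of the end sequence and 0.233% of the rest. Over chromosomes, the end density was 4.27 ± 2.46 peaks per Mb (SD, n = 18) and the density of the rest 4.22 ± 1.07. The end was the denser part on 8 chromosomes and the sparser part on 10 (two-sided exact sign test, p = 0.815, adjusted p = 1 over the 5 main sign tests of ends against rest). Densities assume that all sequence past 3 Mb can be mapped, since the gaps of mm9 were not used here. The pooled result holds for these 18 ends only. The end of chromosome 15, left out by the rule, held 96 peaks, 19.2 per Mb, and was not pooled with them.

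**Figure D1:**
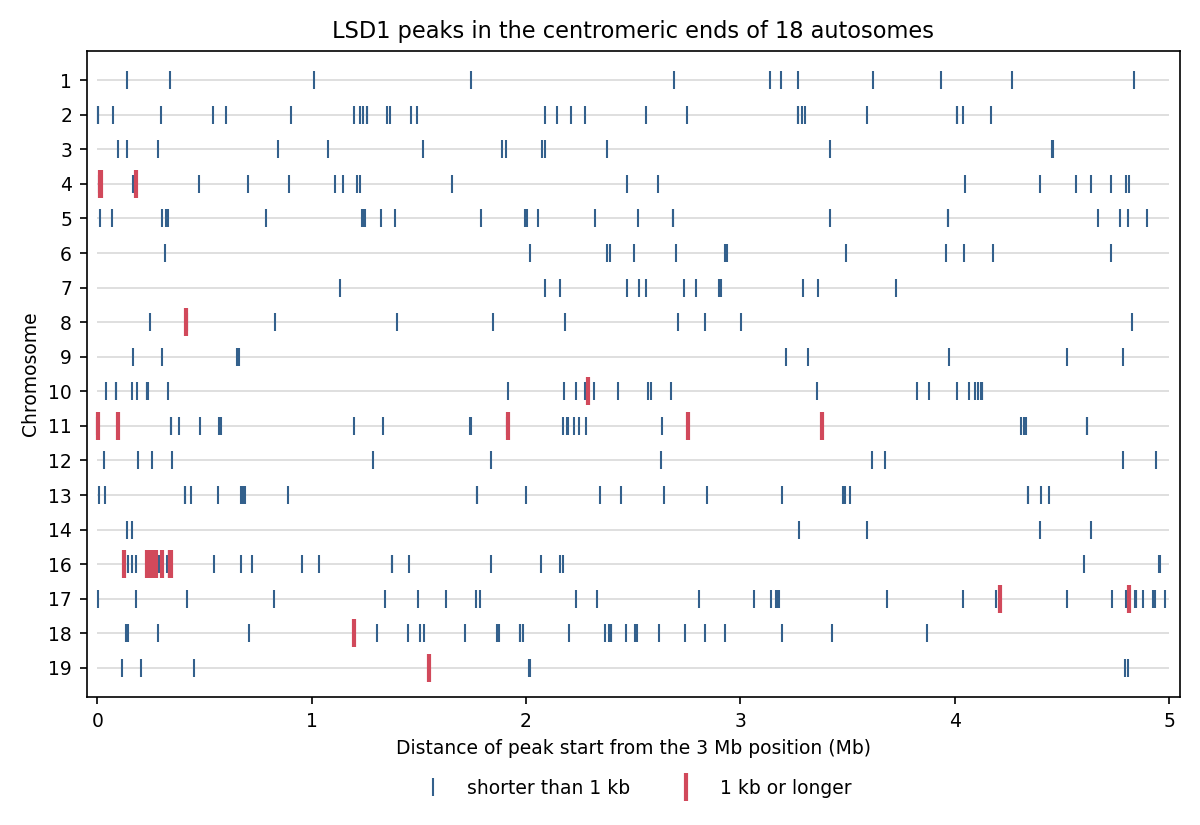
Each tick is the start of an LSD1 peak in the centromeric end of 1 chromosome, with distance from the 3 Mb position in Mb on the horizontal axis. Red, taller ticks are peaks of 1 kb or longer. Chromosome 16 shows a tight block of them within its first 0.5 Mb, while chromosomes 1, 12 and 14 show few and scattered ticks.

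The chromosomes differed widely from each other. End densities ran from 1.20 peaks per Mb on chromosome 14 to 10.4 on chromosome 16, with a median of 3.90, and the rest ran from 2.73 to 6.65. Of 18 chromosomes, 4 (22.2%) were called denser at the end and 3 (16.7%) less dense, at an adjusted p below 0.05 of the exact binomial test. These calls treat neighbouring peaks as independent. When runs of peaks with steps of at most 10 kb between starts were counted once, 0 chromosomes were called in either direction, and 2 above and 3 below had an unadjusted p under 0.05 in the same exact binomial test. The median end density of 3.90 per Mb lay inside the medians of 3.10 to 4.10 found in the 10 following windows of 5 Mb out to 58 Mb. The highest chromosome in each of those windows had 5.80 to 19.6 peaks per Mb, and in 2 of the 10 windows it lay above the 10.4 of the ends. The lowest chromosome in each window had 1 to 2.20 peaks per Mb, a range that includes the 1.20 of the ends.

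Chromosome 16 had the fullest end, with 52 peaks or 10.4 per Mb, against 324 peaks or 3.60 per Mb in its rest. The ratio was 2.89 (interval 2.12 to 3.89, exact binomial test, adjusted p = 5.10e-09). Of its 52 end peaks 41 lay in the first 1 Mb. Without its 1 dense group, described further on, the ratio fell to 1.11 (exact binomial test, adjusted p = 0.706), and with peaks within 10 kb counted once it was 1.36 (exact binomial test, adjusted p = 0.308). Leaving out the dense group took peaks from its end only, with 20 kept there and all 324 in its rest.

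Chromosomes 2, 11 and 18 were the others called denser at the end. Chromosome 2 held 31 end peaks, 6.20 per Mb against 3.45 in its rest, a ratio of 1.80 (interval 1.21 to 2.58, exact binomial test, adjusted p = 0.0122). Its peaks were spread, with 7, 9, 6, 5 and 4 in the successive megabases from 3 to 8 Mb. Chromosome 11 also held 31 end peaks, at 1.79 times the density of its rest (interval 1.20 to 2.58, adjusted p = 0.0122, exact binomial test). Of these, 11 lay in the first megabase, and 16 of the 31 had another start within 10 kb. Counted once, they gave a ratio of 1.44 (adjusted p = 0.304, exact binomial test). Chromosome 18 held 30 end peaks at 1.66 times its rest (interval 1.10 to 2.42, adjusted p = 0.0355, exact binomial test), with 23 of them between 4 and 6 Mb and 0 past 7 Mb. Chromosomes 2 and 18 lost their calls with peaks within 10 kb counted once at nearly the same ratios, 1.75 (adjusted p = 0.0630) and 1.61 (adjusted p = 0.128, exact binomial tests). Against only their next 5 Mb, chromosomes 2, 11 and 18 had ratios of 1.94, 1.41 and 1.15 (adjusted p = 0.120, 0.408 and 0.753, exact binomial tests). Chromosome 16 kept its call in that comparison, at 3.71 (adjusted p = 5.08e-05, exact binomial test).

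Chromosomes 8, 14 and 19 were called less dense at the end. Chromosome 8 had 11 end peaks, 2.20 per Mb against 6.65 in its rest, the highest rest density of the 18, with a ratio of 0.331 (interval 0.165 to 0.595, exact binomial test, adjusted p = 0.000186). Against only its next 5 Mb the ratio was 0.733 (adjusted p = 0.753, exact binomial test). Chromosome 14 had 6 end peaks, the fewest, at a ratio of 0.298 (interval 0.109 to 0.655, adjusted p = 0.00411, exact binomial test). They left 3113 kb without a peak start, between 3161310 and 6274299. Chromosome 19 had 8 end peaks at a ratio of 0.439 (interval 0.187 to 0.883, adjusted p = 0.0418, exact binomial test), and 2777 kb of its end was without a start. With the end extended to 13 Mb its ratio turned to 1.05. With peaks within 10 kb counted once, the ratios of chromosomes 8, 14 and 19 were 0.436, 0.382 and 0.455, and the adjusted p-values of the exact binomial test 0.0630, 0.0732 and 0.140.

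The other 11 chromosomes did not pass the exact binomial test in either direction. Among them, chromosomes 1 and 12 had ratios of 0.541 and 0.539 with intervals that ended below 1 (0.950 and 0.974), at adjusted p of 0.0669 and 0.0777 (exact binomial test). On both, every end peak was isolated, with no other start within 50 kb: 12 of 12 on chromosome 1 and 11 of 11 on chromosome 12. In their rests 43.0% and 39.9% of peaks were isolated. Whether the end shares exceeded what so few peaks per Mb would give was not tested. Chromosome 4 had 31 end peaks at 1.04 times its rest. Its rest included large dense groups, and without dense groups the ratio was 1.64 (adjusted p = 0.0355, exact binomial test). Leaving out dense groups took peaks from its rest only, and its end kept all 31. With peaks within 10 kb counted once, the ratio of chromosome 4 was 1.06 (adjusted p = 0.810, exact binomial test).

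**Figure D2:**
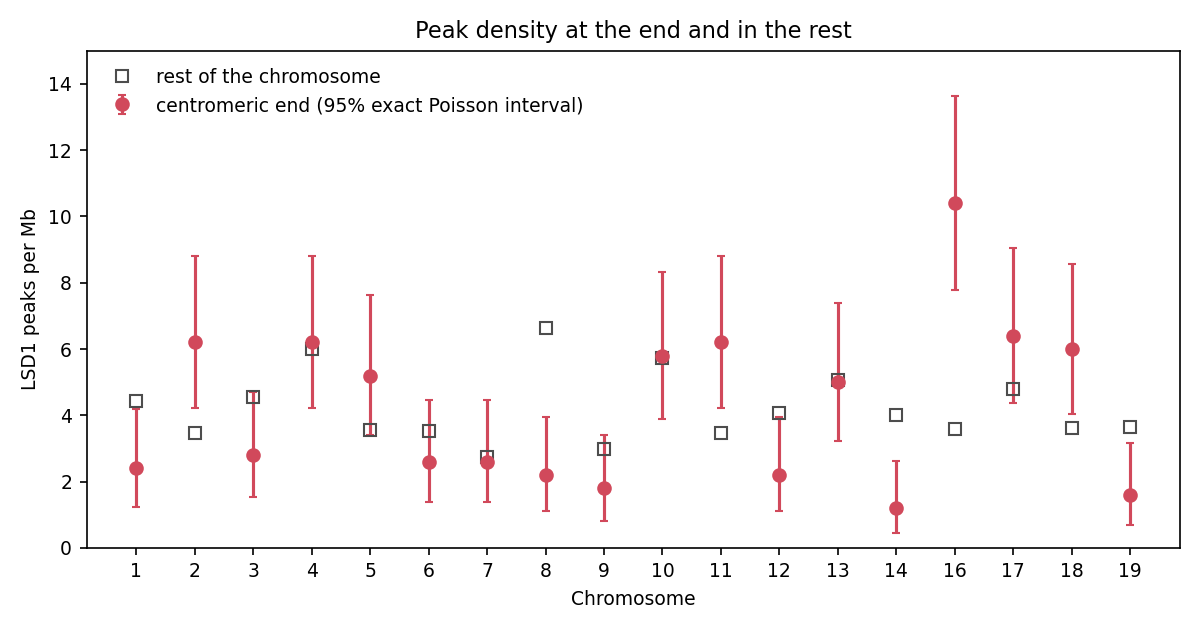
Red points give the LSD1 peaks per Mb in the centromeric end of each chromosome with the 95% exact Poisson interval of the count, and open squares the density in the rest of the same chromosome. Chromosome 16 lies at 10.4 against 3.60 per Mb, chromosomes 2, 11, 16 and 18 have intervals wholly above their squares, and chromosomes 1, 8, 12, 14 and 19 wholly below.

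Along the ends, the first megabase held the most peaks when the chromosomes were pooled, but not on every chromosome. The 18 chromosomes held 133 peaks from 3 to 4 Mb, then 63, 80, 44 and 64 in the following megabases. Chromosome 16 gave 41 of the 133 and chromosome 4 gave 17. The mean of the first megabase was 7.39 peaks, the highest of the 58 windows of 1 Mb that all 18 chromosomes share out to 61 Mb. Without chromosome 16 it was 5.41, the fifth highest, and without chromosomes 4 and 16 it was 4.69, the same as the mean from 5 to 6 Mb without them. The median over the 18 chromosomes was 4 peaks in the first megabase, and 2 of the other windows had a higher median. Chromosome 7 alone had no peak there: its first start was at 4129979. The pattern was noted after the list was seen and was not tested.

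The pooled comparison changed with the boundary. With the end taken as starts below 5 Mb, its density was 5.44 per Mb, 1.29 times the rest (interval 1.12 to 1.49, exact binomial test, p = 0.000595), although 11 of 18 chromosomes were less dense at the end. Without chromosome 16 this ratio was 1.04 (exact binomial test, p = 0.615).

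**Figure D3:**
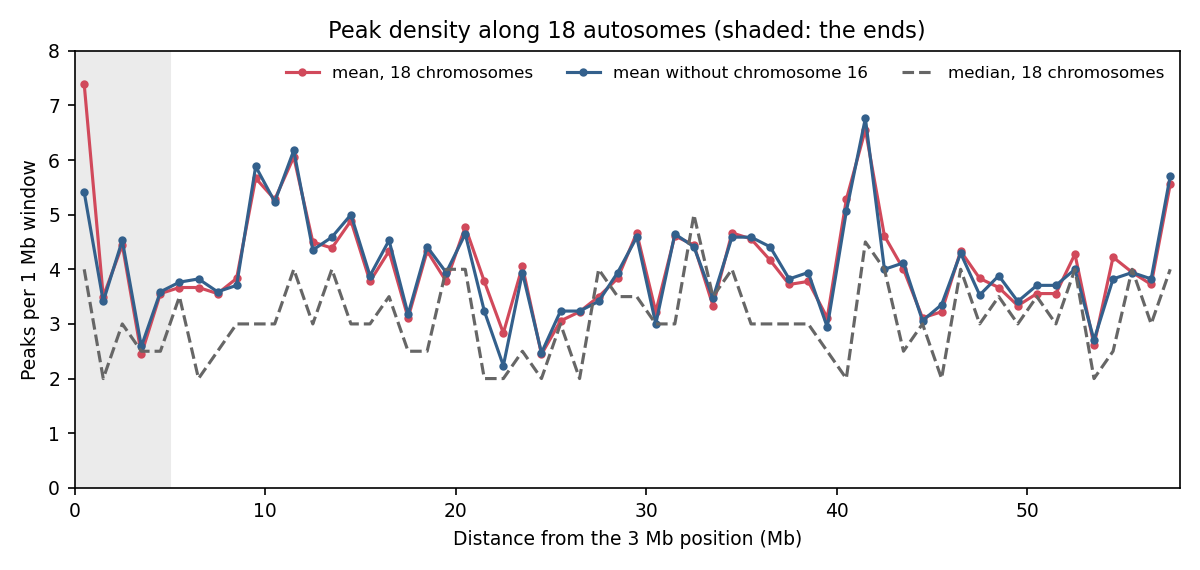
Lines give LSD1 peaks per 1 Mb window against the distance from the 3 Mb position, as the mean of 18 chromosomes (red), the mean without chromosome 16 (blue) and the median (dashed), with the ends shaded. The first window has a mean of 7.39, which falls to 5.41 without chromosome 16, and the median of that window is 4.

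Some peaks began at the very start of the assembled sequence. Within 15 kb of the 3 Mb position there were 13 peak starts, on chromosomes 2, 4, 5, 11, 13 and 17, and within 200 kb there were 48 on 15 chromosomes. The first start lay at a median of 107 kb past 3 Mb.

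Chromosome 11 was the extreme case. Its first peak, chr11:3000000-3000761, began at the 3 Mb position itself, was 762 bp long and scored 519.45. The next, chr11:3000985-3003058, was 2074 bp long and scored 582.68, and the one after it, chr11:3003771-3004166, was 396 bp long and scored 71.09. After a space without starts of 93.5 kb came chr11:3097274-3100087, 2814 bp long with a score of 546.05. Scores are the authors' own, on a scale that is not stated, and serve to rank peaks within this list. Of the 6 end peaks that scored 500 or more, 3 were these on chromosome 11, and 5 of the 6 lay within 500 kb of the 3 Mb position.

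Chromosome 4 carried a pair of compact groups close to its start. The first, chr4:3007460-3018824, had 7 peaks in 11.4 kb that covered 57.5% of it. Their median length was 817 bp and their median score 197.72. The second, chr4:3166408-3182522, had 7 peaks in 16.1 kb that covered 44.0% of it, with a median score of 78.46. It held the second longest peak of all ends, chr4:3179501-3182522, 3022 bp long with a score of 160.31. Together these groups held 14 of the 17 peaks in the first megabase of chromosome 4. Chromosomes 2, 5, 13 and 17, in contrast, had 1 or 2 peaks each within 15 kb of 3 Mb, 319 to 579 bp long and scoring 54.34 to 106.58.

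The largest group of the ends was on chromosome 16, at chr16:3231576-3344880, with 32 peaks in 113 kb. It was the only dense group of the ends, where a dense group is a chain of 20 or more peaks with steps of at most 50 kb from start to start. It held 8.33% of the end peaks, against 8.64% of all peaks of the 18 chromosomes that lay in dense groups. The densest 100 kb of all ends, chr16:3231576-3331575, held 26 of its peaks, while the densest 100 kb outside chromosome 16 held 7, on chromosome 4.

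Peaks of the chromosome 16 group were long. Their median length was 1014 bp (range 324 to 2577 bp), and 17 of 32 were 1 kb or longer. The median length was 435 bp in the rest of chromosome 16, and 461 bp over the 20 end peaks of chromosome 16 outside the group. Among the 20 dense groups of the 18 chromosomes, it was the ninth by number of peaks and the second by median length, in a range of 384.5 to 2312 bp. Its peaks covered 29.7% of its span at a median spacing of 1.82 kb.

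The group was not even along its length. The highest scores stood close to its beginning: chr16:3252091-3254667 was 2577 bp long and scored 559.34, and chr16:3246055-3248604 was 2550 bp long and scored 465.37. Between them and 3272427 peaks followed each other closely, with scores down to 50.14. Then came 4 peaks spaced by 6.90, 8.80, 15.8 and 21.8 kb, of which chr16:3302903-3304096 scored 369. The last 6 peaks stood together in chr16:3337140-3344880, with scores from 55.11 to 365.4. A separate chain of 5 peaks, at chr16:3125428-3179159, preceded the group and included a 1789 bp peak.

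**Figure D4:**
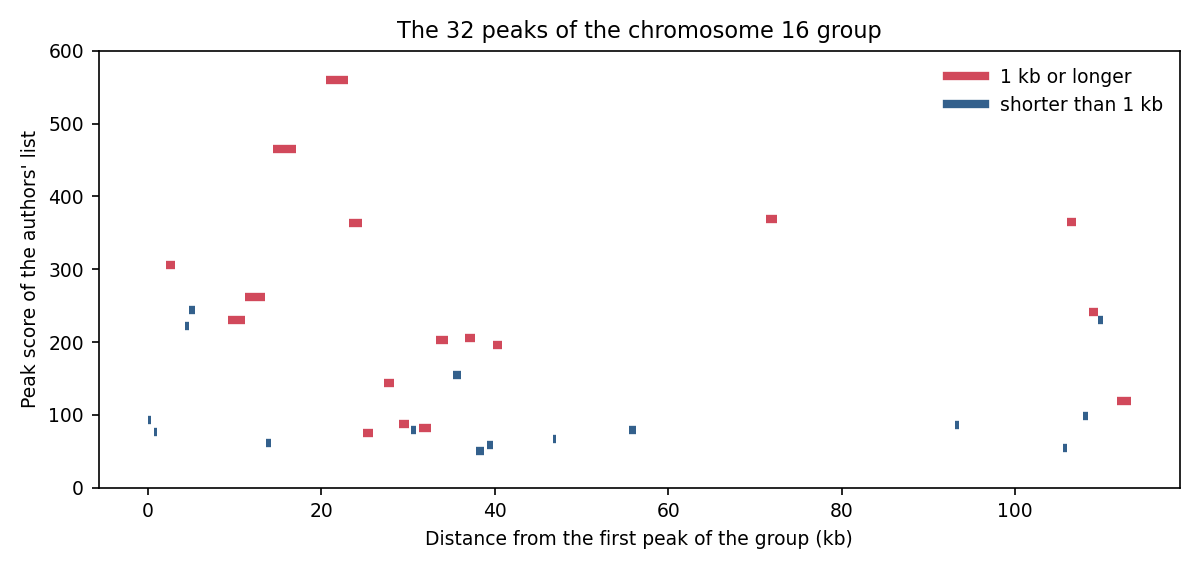
Each bar is 1 of the 32 peaks of the group on chromosome 16, drawn to its length along the distance from the first peak in kb, at the height of its score in the authors' list. Peaks of 1 kb or longer (red, 17 of 32) include the highest, at 559.34, and the scores reach down to 50.14.

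Other groups of the ends were smaller and looser. In all, 9 chains of 5 or more peaks within 50 kb of each other held 82 end peaks on 6 chromosomes, and 5 of the 9 began in the first megabase. Chromosome 17 had the second largest, 9 peaks at chr17:7800088-7983838, spread over 184 kb with a median spacing of 21.5 kb and covering 2.86% of it. Chromosome 11 had 6 peaks at chr11:5171249-5281915 with scores from 99.21 to 299.4. Chromosome 10 had 6 at chr10:7065079-7125957 and 5 at chr10:3162786-3235191. Chromosome 2 had 5 at chr2:4196073-4260631 with a median score of 58.33. Counting the 5-peak chain of chromosome 16, 2 of the 36 peaks in these loose chains were 1 kb or longer, as were 3 of the 14 in the compact groups of chromosome 4, beside 5.45% of all peaks of the 18 chromosomes. These counts are small and were not tested against each other.

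Over all ends, the spacing of peaks was close to that of the rest. Another start lay within 10 kb of 124 end peaks, 32.3%, against 31.7% of all peaks of the 18 chromosomes and 31.7% of the rest. By chromosome, the share was higher at the end on 6 and lower on 12 (exact sign test, two-sided, p = 0.238, adjusted p = 0.595). It ran from 0 of 12, 13, 13, 11 and 6 peaks on chromosomes 1, 6, 7, 12 and 14 to 51.6% on chromosome 11 and 69.2% on chromosome 16. Isolated peaks made up 169 of 384, 44.0%, against 43.3% of all peaks of the 18 chromosomes. The first megabase and the other 4 differed in this respect: 55.6% of its 133 peaks had a start within 10 kb, against 19.9% of the 251 peaks from 4 to 8 Mb. Without chromosome 16 these shares were 45.7% and 19.2%. The 45.7% still included the 14 peaks in the compact groups of chromosome 4. This difference was seen in the list and not tested.

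The lengths of end peaks were close to those of the rest. Their median was 456.5 bp, with quartiles of 367.5 and 631.25 bp and a range of 227 to 4172 bp, against a median of 440 bp in the rest. The median was higher at the end on 8 chromosomes and lower on 10 (exact sign test, two-sided, p = 0.815, adjusted p = 1). Medians by chromosome ran from 350 bp on chromosome 14 to 635 bp on chromosome 16, with 580 bp on chromosome 11 and 581.5 bp on chromosome 17, and from 418 to 478.5 bp in the rest, where each rests on many more peaks.

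Long peaks lay on 8 of the 18 ends, and chromosome 16 held most of them. Of the 384 peaks 32 were 1 kb or longer, 8.33% against 5.45% of all peaks of the 18 chromosomes, and 18 of the 32 were on chromosome 16. Without that chromosome the share was 4.22%, against 5.39% in the rest. The share was higher at the end on 6 chromosomes and lower on 12 (exact sign test, two-sided, p = 0.238, adjusted p = 0.595). The 10 ends with no such peak held 6 to 31 peaks each. Peaks of 2 kb or longer numbered 7, 1.82% against 0.963% of all. Without chromosome 16 they numbered 4, 1.20% against 0.961% in the rest. Their share was higher at the end on 4 chromosomes and lower on 8 (exact sign test, two-sided, p = 0.388). Of the 7 peaks, 6 lay in the first megabase. The exception was the longest end peak, chr18:4195106-4199277, 4172 bp with a score of 119.47 and its nearest neighbouring start 108 kb away.

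Scores at the ends were close to those of the rest. The median was 79.8 against 78.3, and 202 of 384 end peaks (52.6%, against 50.1% of all peaks of the 18 chromosomes) scored at or above the median of the whole list. The median score was higher at the end on 8 chromosomes, lower on 9 and equal on chromosome 2 (exact sign test, two-sided, p = 1, adjusted p = 1). It was highest on chromosome 17, at 111 against 76.97 in its rest, and lowest on chromosome 1, at 59.5 against 78.98.

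The highest-scoring peaks of the 18 ends differed widely in score and in setting. Of these 18 peaks 12 had no other start within 50 kb, where 44.0% of all end peaks had none and the share by end averaged 54.3%, and 6 lay in the first megabase. Their scores ran from 89.83 on chromosome 14, at chr14:6274300-6274819, to 641.02 on chromosome 8, with a median of 291. The peak of chromosome 8, chr8:3246915-3247738, was the top of all ends, 824 bp long and 165 kb from its nearest neighbour, on a chromosome whose end was sparse. The second was chr17:4626043-4626674, 632 bp long with a score of 592.59 and 132 kb from the next start. Isolated tops were also found on chromosome 19, chr19:4547772-4548856 (score 445.07), and chromosome 9, chr9:7784418-7785184 (score 410). On chromosomes 4, 5, 10, 11, 13 and 16, in contrast, the top peak had another start within 50 kb.

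**Figure D5:**
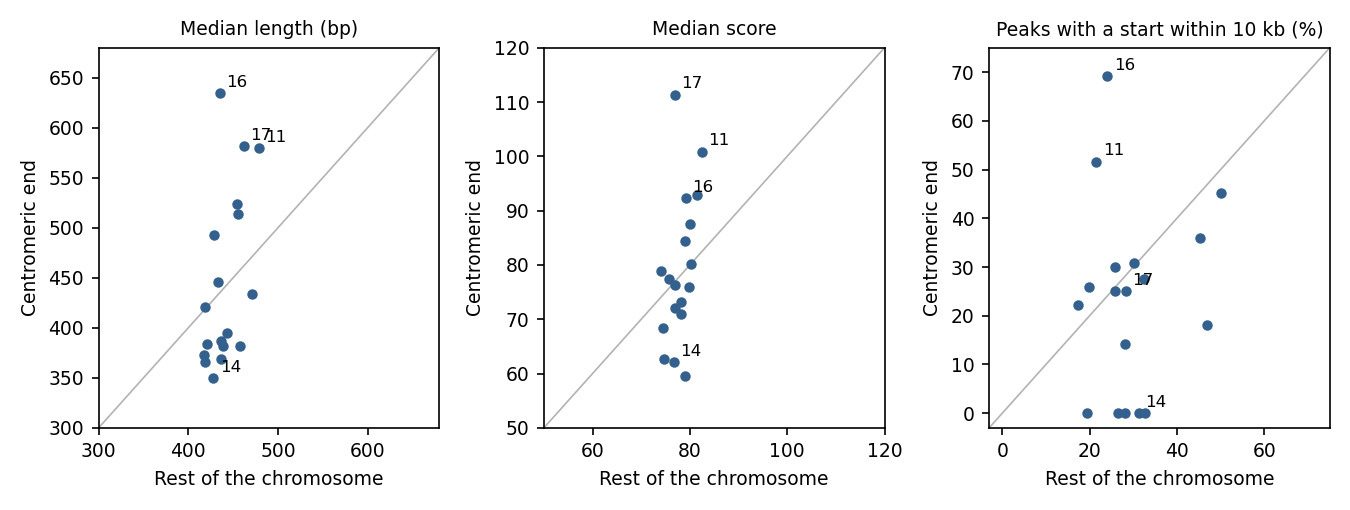
Each point is 1 of 18 chromosomes, with the value in its rest on the horizontal axis and in its centromeric end on the vertical axis, for median length in bp, median score and the percentage of peaks with another start within 10 kb; the line marks equal values. Points lie on both sides of the line in each panel, chromosomes 11 and 16 are above it in all of them, and chromosomes 1, 7, 8, 13 and 14 are below it in all of them.

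The opposite ends of the same chromosomes held more peaks with chromosome 4 and fewer without it. The last 5 Mb before the last peak held 549 peaks, 6.10 per Mb, and the centromeric ends had 0.699 times that density (interval 0.612 to 0.798, exact binomial test, p = 7.34e-08). Chromosome 4 had 231 peaks, 46.2 per Mb, at its far end against 31 at its centromeric end. The other 17 chromosomes had 318 at the far and 353 at the centromeric ends, a ratio of 1.11 (exact binomial test, p = 0.189). With peaks within 10 kb counted once, all 18 chromosomes gave 0.915 (exact binomial test, p = 0.281). The centromeric end was denser than the far end on 9 chromosomes and less dense on 8, with 1 tie (exact sign test, two-sided, p = 1).

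The 18 ends were less dense than those left out by the rule, which was set with earlier results of these data known. This contrast was not tested, and the rest of chromosomes 15 and X was not described here. In peak length the end of chromosome 15 was near the 18 ends, with a median of 476 bp against 456.5 bp. Peaks of 1 kb or longer made up 7.29% there, 26.2% on X and 8.33% at the 18 ends. The same 5 Mb held 96 peaks, 19.2 per Mb, on chromosome 15 and 168 peaks, 33.6 per Mb, on chromosome X, both above the 10.4 per Mb of chromosome 16. On X 70.8% of these peaks lay in dense groups, and on chromosome 15 none did.

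The position limit of 8 Mb fell between a peak on chromosome 17, chr17:7983407-7983838 (432 bp, score 89.16), the last one inside, and one on chromosome 6, chr6:8005330-8005692 (363 bp, score 69.53), the first outside.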

How the data were processed

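Reads were aligned to mm9 with BWA, per the submitters' processing notes, and peaks of 1 LSD1 ChIP library against 1 input library were called with MACS in Galaxy, per the file headers. Their versions, settings and filters are not stated in those sources. Each row of the deposited list gives a peak's position and a score on an unstated scale. Coordinates are printed 1-based. The gene and promoter tables in hand were of GRCm38, so no gene is named and no sequence printed.

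The end of a chromosome ran from 3 to 8 Mb and the rest from 8 Mb to the end of its last peak. Counts were compared by two-sided exact binomial tests against length, adjusted by Benjamini-Hochberg over the 18 chromosomes, and 95% intervals were exact (Clopper-Pearson). Densities, medians and shares of end and rest were also compared by two-sided exact sign tests over chromosomes, adjusted over 5 tests. Sign tests against the far ends and under alternative settings were not adjusted. Named were the top-scoring peak of each end, the 5 longest, chains of 5 or more peaks within 50 kb, the densest 100 kb window and the peaks next to 8 Mb; peaks within 15 kb of 3 Mb and the first 4 of chromosome 11 were chosen after their values were seen. Alternatives were other boundaries, lengths, comparison sequence and subsets of peaks; those without chromosome 16, without 4 and 16 or combining 2 choices were added after seeing the data. Members and tests were chosen with earlier results of these data known. Tests ran in scipy 1.17.1 under Python 3.11.15, with pandas 2.3.3 and numpy 2.4.6 for tables and matplotlib 3.10.9 for plots.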

Additional observations from a re-analysis of the deposited data

How the results depend on the processing

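The pooled density ratio of 1.01 crossed 1 without a call with starts below 10 Mb (0.966) and 13 Mb (0.984), without chromosomes 4 and 16 (0.910), and with peaks within 10 kb counted once (0.994). It passed the exact binomial test with starts below 5 Mb (1.29), but not without chromosome 16 as well (1.04), and it reversed with a call against the last 5 Mb (0.699), and without one when peaks within 10 kb were also counted once there (0.915). Leaving out 1 chromosome at a time gave 0.917 (without chromosome 16) to 1.07 (without chromosome 8), none passing. The number of chromosomes denser at the end was 9 of 18 counted from the first peak, and 10 both without dense groups and with peaks within 10 kb counted once. Longer end medians were found on 6 of 12 chromosomes with starts below 5 Mb and 9 of 18 without dense groups, and higher scores on 7 of 12 with starts below 5 Mb. Closer neighbours were found on 8 of 12 with starts below 5 Mb, 9 of 18 below 13 Mb and 8 of 13 among peaks at or above the median score. No sign test passed under any of these settings. Chromosomes called denser at the end numbered 4, but 1 with starts below 10 Mb, 2 among peaks at or above the median score, 0 with peaks within 10 kb counted once and 2 against the next 5 Mb. Chromosomes called less dense numbered 3, but 1 with starts below 5 Mb (chromosome 6, with none of the 3 kept), 0 with peaks within 10 kb counted once and 6 against the last 5 Mb (all 3 kept). Against the next 5 Mb, 1 of the 3 kept its call (chromosome 19), and 1 of the 4 called denser did (chromosome 16). Chromosome 19 reversed with starts below 13 Mb (1.05). The cause was not tested. No paired analysis was possible because ChIP and input are 1 library each, joined in a single list, and no replicate could be left out. Without read numbers, sites too weak to be called cannot be counted.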
